A study of Mus musculus with 9 samples.

Results

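Antigen presentation genes encode the proteins that show peptides to T cells at the cell surface, and 10 of them were looked for among the transcripts of 9 mouse hearts. Members were the probe sets that the platform annotation assigns to 1 gene symbol out of H2-Aa, H2-Ab1, H2-Eb1, Cd74, H2-K1, H2-D1, B2m, Tap1, Psmb8 and Psmb9. The rule gave 8 probe sets for 8 genes, out of 23521 probe sets with 1 symbol and 33793 in all. H2-D1 and Cd74 had no probe set of their own: H2-D1 was listed together with H2-Q2, and Cd74 together with Mir5107. All 8 member probe sets passed the filter on low signal, a mean log2 signal over all 9 hearts above 5.21.

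Hearts came from mice at 2 months of age, with 3 Col4a3-/-OPN-/-, 3 Col4a3-/- and 3 wild type hearts, 1 heart per array. The Col4a3 gene encodes a type IV collagen chain found in basement membranes, and its loss models Alport syndrome, an inherited kidney disease. In Col4a3-/-OPN-/- mice the gene for osteopontin, an integrin-binding glycoprotein, is missing as well, so the loss of Col4a3 was shared by both mutant groups. The submitters' title ties these mice to a form of heart failure in which ejection fraction is preserved, with osteopontin and mitochondria as its topics. The labels name no strain and no sex, and they do not say how the alleles were made or whether the hearts were perfused.

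MHC class I molecules pair a heavy chain (H2-K1 or H2-D1) with beta-2 microglobulin (B2m) and are made by nearly every nucleated cell. Their peptides are cut by the proteasome, whose inducible immunoproteasome form carries Psmb8 and Psmb9, and are carried into the endoplasmic reticulum by a transporter that contains Tap1. MHC class II molecules pair an alpha and a beta chain (H2-Aa with H2-Ab1, and H2-Eb1 with H2-Ea), are guided by the invariant chain Cd74, and are made mainly by dendritic cells, B cells and macrophages. Interferon gamma raises both pathways, class II through the coactivator Ciita. In the heart, resident macrophages and dendritic cells are the usual carriers of class II.

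Hearts of 1 genotype were not alike in other respects. Medians of the arrays were within 5.18 to 5.24 log2 units, and Pearson's r between any 2 arrays lay between 0.936 and 0.986. Col4a3-/- replicate 3 stood furthest from the rest, with a mean r of 0.943 and a mean of 9.29 over 7 genes of the acute phase and endothelial activation, against 6.50 to 7.23 in the other 8 hearts. By Xist and Y-linked genes, 3 hearts had the female pattern, none of them wild type: Col4a3-/- replicates 1 and 3 and Col4a3-/-OPN-/- replicate 2. The cardiomyocyte genes Tnnt2, Myh6 and Tnni3 lay between 12.1 and 13.0 in every heart. Neither targeted gene tested the genotypes, since the probe set of Col4a3 was below the filter and overlapped among the groups (means of 5.10, 5.14 and 5.30 in Col4a3-/-OPN-/-, Col4a3-/- and wild type hearts), and no probe set had Spp1, the osteopontin gene, as its only symbol.

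Of the 8 members, 7 lie on chromosome 17, in the mouse MHC. H2-Ab1, H2-Aa and H2-Eb1 follow each other as protein-coding genes in the RefSeq annotation of GRCm38.p6, and so do Psmb9, Tap1 and Psmb8, while B2m lies on chromosome 2. The start regions below are shown because the class II genes moved together across hearts, because Tap1 and Psmb9 share theirs, and because B2m, the class I light chain, is a point of contrast. RefSeq promoter windows (250 bases before to 50 after the start, GRCm38.p6) matched 7 of the 8 members, all but H2-Ab1. Capitals mark matches on either strand to GAAA, any 2 bases and GAAA (core of the interferon-stimulated response element), TTCNNNGAA (gamma-activated site), ATTGG (Y box, the inverted CCAAT box) or TGACGT (core of the cyclic AMP response element).
H2-Aa, chr17:34287824-34287943, minus strand, 120 bases before the start: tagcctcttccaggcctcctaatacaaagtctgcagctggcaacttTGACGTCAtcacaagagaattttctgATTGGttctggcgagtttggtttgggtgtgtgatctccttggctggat
H2-Eb1, chr17:34305747-34305866, plus strand, 120 bases before the start: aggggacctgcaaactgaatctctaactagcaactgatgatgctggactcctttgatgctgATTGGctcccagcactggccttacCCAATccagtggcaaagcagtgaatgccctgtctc
B2m, chr2:122147537-122147686, plus strand, 150 bases before the start: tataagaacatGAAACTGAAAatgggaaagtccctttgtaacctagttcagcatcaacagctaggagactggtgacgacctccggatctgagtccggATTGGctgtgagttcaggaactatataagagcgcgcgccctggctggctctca
Tap1 and Psmb9, chr17:34187331-34187555, plus strand, the 225 bases between the 2 starts, with Tap1 to the right: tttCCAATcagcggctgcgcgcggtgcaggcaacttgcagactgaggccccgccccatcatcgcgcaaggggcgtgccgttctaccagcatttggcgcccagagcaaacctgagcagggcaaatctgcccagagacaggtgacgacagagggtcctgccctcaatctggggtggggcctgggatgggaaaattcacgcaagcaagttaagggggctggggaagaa

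The Y box letters were found in the windows of 6 of 7 members, all but Psmb8, and in 37.4% of 32544 distinct windows of all genes. Each of the other motifs was in 1 of the 7 windows: the interferon-stimulated response element core in B2m (3.45% of all windows), TTCNNNGAA in Psmb8 (8.33%) and TGACGT in H2-Aa (7.55%). In H2-Aa the marked stretch TGACGTCA reads the same way on both strands and so holds 2 overlapping matches, 1 on each strand. The windows of Tap1 and Psmb9, which are transcribed away from each other, shared 275 of their 300 bases and the same Y box match. A match describes letters in these windows and is not a measured binding site. The search took exact letters only, so a window without a match can still hold a variant of the motif.

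MHC class II genes varied widely among hearts, most of all within the Col4a3-/- and wild type groups. H2-Ab1, the beta chain of the H2-A molecule (probe set 17336494), had log2 signals of 9.04, 9.57 and 8.82 in Col4a3-/-OPN-/- hearts, 9.44, 9.37 and 7.98 in Col4a3-/- hearts and 8.52, 9.99 and 9.62 in wild type hearts, in the order of replicates 1 to 3. The lowest heart was Col4a3-/- replicate 3 and the next lowest wild type replicate 1, while the highest were wild type replicates 2 and 3, so the groups overlapped throughout. H2-Ab1 spanned 2.01 log2 units over the 9 hearts, or 4.04-fold. Within genotypes it spanned 0.75, 1.47 and 1.47, in the same order of groups. The genotype means (9.14, 8.93 and 9.38) spanned 0.45, and means can never span more than the hearts they average. In bulk tissue, fewer cells of a type and less RNA per cell cannot be told apart.

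H2-Aa, the alpha chain that pairs with H2-Ab1 (17343813), was at 7.68, 8.06 and 7.60 in Col4a3-/-OPN-/- hearts, 8.12, 7.94 and 6.73 in Col4a3-/- hearts and 7.16, 8.51 and 8.37 in wild type hearts. H2-Eb1, the beta chain of the H2-E molecule (17336502), was at 7.23, 7.68 and 7.12 in Col4a3-/-OPN-/- hearts, 7.56, 7.66 and 6.65 in Col4a3-/- hearts and 6.91, 7.82 and 7.72 in wild type hearts. For all 3 class II members the lowest heart was Col4a3-/- replicate 3, followed by wild type replicate 1 and Col4a3-/-OPN-/- replicate 3, and the highest was wild type replicate 2. H2-Aa spanned 1.78 log2 units (3.44-fold) and H2-Eb1 1.17 (2.25-fold). Genotype accounted for 9.99% of the variance of H2-Aa, 9.60% of that of H2-Ab1 and 4.38% of that of H2-Eb1. In the other members this share ran from 5.97% (Psmb8) to 35.6% (Psmb9).

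Col4a3-/-OPN-/- hearts were the least spread in class II. The SD of H2-Ab1 was 0.38 in Col4a3-/-OPN-/-, 0.83 in Col4a3-/- and 0.76 in wild type hearts (n = 3 each), and each of the last 2 groups held 1 heart well below its others. Whether the spread differed between genotypes was not tested. The pooled SD within genotypes placed H2-Ab1 at the 99.2nd percentile of the 13650 probe sets tested, H2-Aa at the 98.9th and H2-Eb1 at the 96.7th. Class I and peptide supply members lay between the 37.9th percentile (B2m) and the 75.4th (H2-K1).

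**Figure D1:**
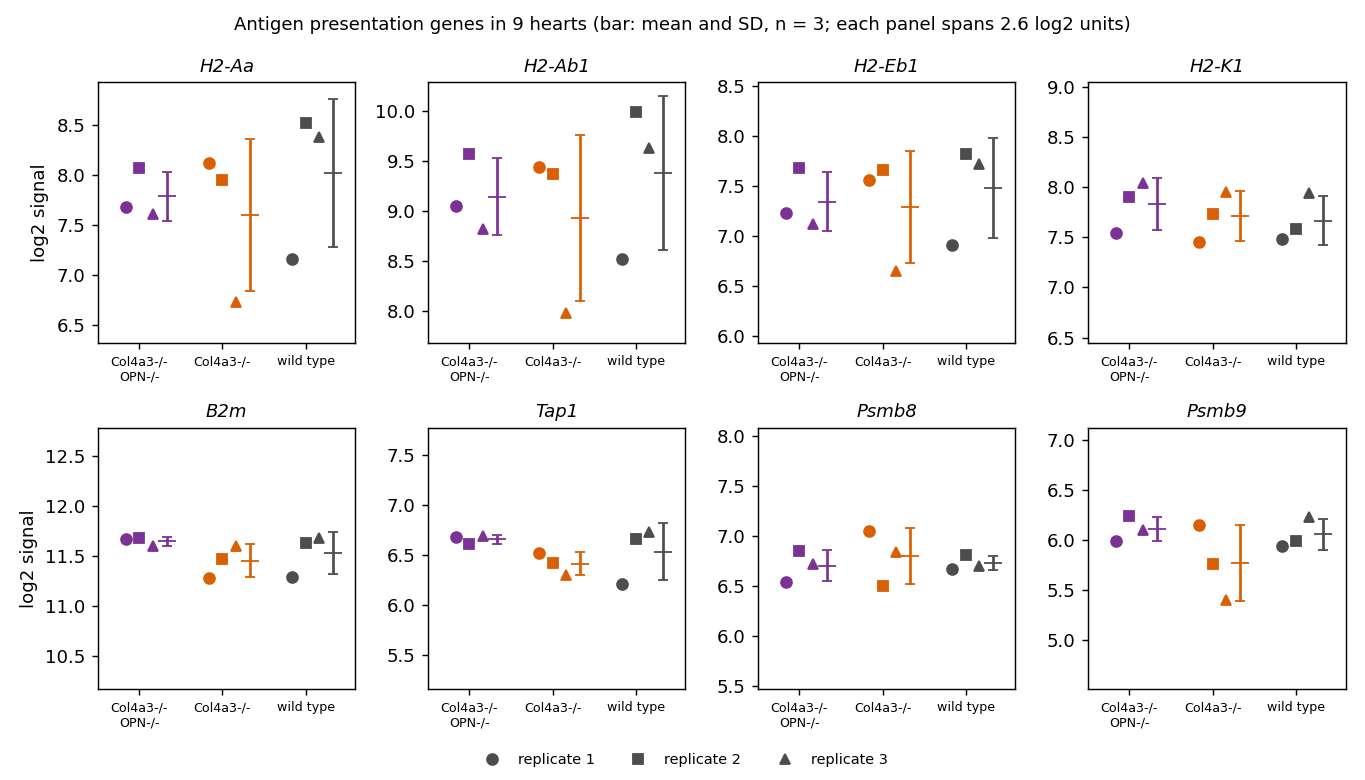
Log2 signal (vertical axes) of the 8 members in Col4a3-/-OPN-/-, Col4a3-/- and wild type hearts, with a point for each heart, shaped by replicate number, and a bar for the mean and SD of 3 hearts. Every panel spans the same number of log2 units, so the wide scatter of H2-Aa, H2-Ab1 and H2-Eb1 within Col4a3-/- and wild type hearts can be set against the narrower scatter of B2m.

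The 3 class II members moved together from heart to heart. Over the 9 hearts Pearson's r was 0.989 between H2-Aa and H2-Ab1 (Spearman's rho 0.983), with an exact two-sided permutation p = 5.51e-06 and a Spearman exact p = 4.96e-05. It was 0.984 between H2-Ab1 and H2-Eb1 (rho 0.983, exact permutation p = 1.38e-05, Spearman exact p = 4.96e-05), and 0.973 between H2-Aa and H2-Eb1 (rho 0.950, exact permutation p = 3.31e-05, Spearman exact p = 0.000353). Adjusted over the 28 pairs of members by the Benjamini-Hochberg method, these 3 exact permutation p-values were 0.000154 to 0.000309, and for rho 0.000694 to 0.00329. Without the 2 hearts furthest from the median r was 0.909 to 0.963, and over deviations from each genotype's mean it was 0.978 to 0.990. The genes share arrays and neighbouring positions, and arrays are the only replicates of this relation.

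H2-DMa, which helps to load peptides onto class II, was the gene most like the class II members among the 13642 other probe sets tested. Likeness was the Pearson's r over 9 hearts with the mean of H2-Aa, H2-Ab1 and H2-Eb1, given as a description with no test. H2-DMa had r = 0.949, and 0.872 without the 2 hearts furthest from the median. Its log2 signals were 6.24, 6.33 and 6.04 in Col4a3-/-OPN-/- hearts, 6.17, 6.30 and 5.88 in Col4a3-/- hearts and 5.97, 6.46 and 6.43 in wild type hearts, with the same 2 hearts lowest. Naa40 (r = 0.923), Serpinf1 (0.912), Lurap1l (0.908) and Eipr1 (0.908) came next, and had r between 0.717 and 0.796 without those hearts.

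Probe set 17350982, which the annotation gives to Cd74 and Mir5107 and which is therefore assigned to neither, had the same 2 hearts lowest as the class II members. It was at 9.55, 9.97 and 9.59 in Col4a3-/-OPN-/- hearts, 9.82, 10.08 and 9.12 in Col4a3-/- hearts and 9.29, 10.40 and 10.33 in wild type hearts (r = 0.961 with the class II mean). Probe set 17337065, given to H2-Q2 and H2-D1, lay between 5.12 and 5.66 in all hearts, close to the filter, with r = -0.16.

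Other class II genes gave a mixed picture. H2-Ea, the alpha chain that pairs with H2-Eb1 and that is silent in mice of the b haplotype, lay between 4.53 and 4.65 in all 9 hearts, below the filter. Ciita, the coactivator that class II transcription depends on, lay between 5.55 and 5.86. It was at 5.65, 5.55 and 5.58 in Col4a3-/-OPN-/- hearts, 5.57, 5.79 and 5.61 in Col4a3-/- hearts and 5.82, 5.55 and 5.86 in wild type hearts, so that wild type replicates 1 and 2, far apart in class II, were ordered the other way in Ciita. H2-Ea and Ciita were singled out for their roles after their values were seen.

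**Figure D2:**
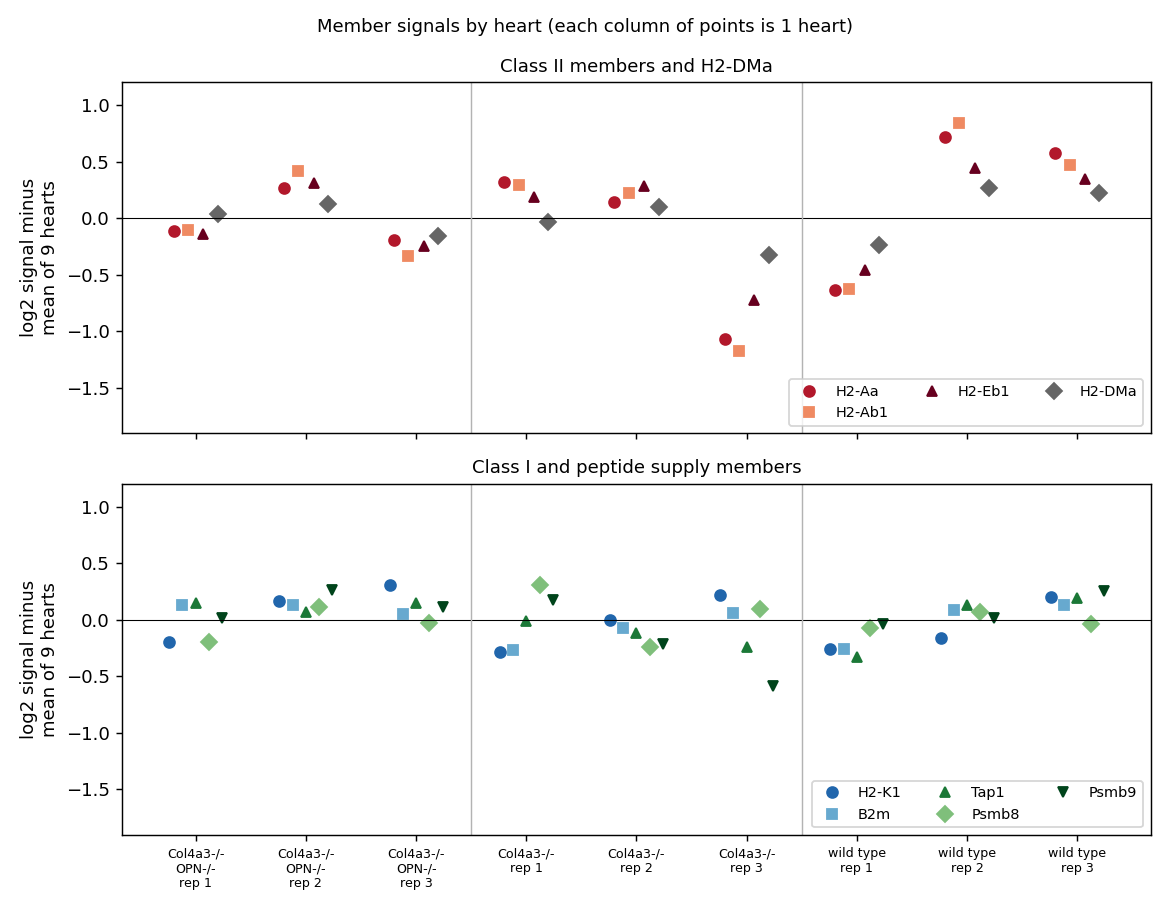
Log2 signal minus the gene's mean over 9 hearts (vertical axes) for each heart (horizontal axis, Col4a3-/-OPN-/- at the left and wild type at the right). In the upper panel H2-Aa, H2-Ab1, H2-Eb1 and H2-DMa drop together in Col4a3-/- replicate 3 and wild type replicate 1, and in the lower panel the class I and peptide supply members stay closer to their means.

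Class I members were steadier. B2m, the light chain of class I (17375373), was at 11.67, 11.67 and 11.59 in Col4a3-/-OPN-/- hearts, 11.27, 11.47 and 11.60 in Col4a3-/- hearts and 11.29, 11.63 and 11.67 in wild type hearts. It spanned 0.40 log2 units, or 1.32-fold, with Col4a3-/- replicate 1 and wild type replicate 1 lowest. H2-K1, a class I heavy chain (17343710), was at 7.54, 7.91 and 8.04 in Col4a3-/-OPN-/- hearts, 7.45, 7.73 and 7.96 in Col4a3-/- hearts and 7.48, 7.58 and 7.94 in wild type hearts. The 3 groups of H2-K1 covered nearly the same range, and Col4a3-/- replicate 3, lowest in class II, was second highest here. Class I heavy chain genes are close in sequence, so signal from their relatives in the H2-K1 probe set cannot be told apart from H2-K1.

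Among the peptide supply genes was Tap1, whose groups did not overlap in 1 comparison. Tap1, a chain of the peptide transporter (17336432), was at 6.68, 6.61 and 6.69 in Col4a3-/-OPN-/- hearts, 6.53, 6.42 and 6.30 in Col4a3-/- hearts and 6.21, 6.67 and 6.73 in wild type hearts. All 3 Col4a3-/-OPN-/- hearts lay above all 3 Col4a3-/- hearts, while wild type hearts covered both ranges. In that comparison groups did not overlap for 1 of 8 members and for 16.5% of all probe sets tested. Psmb9, an immunoproteasome subunit (17343789), was at 5.99, 6.24 and 6.10 in Col4a3-/-OPN-/- hearts, 6.15, 5.76 and 5.40 in Col4a3-/- hearts and 5.94, 5.99 and 6.23 in wild type hearts. Its 2 lowest hearts were Col4a3-/- replicates 3 and 2, and the Col4a3-/- mean of 5.77 was the lowest of the genotype means.

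Psmb8, another immunoproteasome subunit (17336446), was at 6.55, 6.86 and 6.72 in Col4a3-/-OPN-/- hearts, 7.05, 6.50 and 6.84 in Col4a3-/- hearts and 6.68, 6.81 and 6.70 in wild type hearts. Over the 9 hearts its r with the other 7 members lay between -0.25 and 0.18. Without the 2 hearts furthest from the median these ran from -0.21 (Psmb9) to 0.47 (B2m). Tap1 and Psmb9, which share a start region, had r = 0.661 (Spearman's rho 0.633, exact permutation p = 0.0458 and Spearman exact p = 0.0760, adjusted over 28 pairs 0.162 and 0.452), and r = 0.575 without the 2 hearts furthest from the median of Tap1. With the class II members Tap1 and Psmb9 had r between 0.61 and 0.72, but between -0.25 and 0.22 without the 2 furthest hearts, so those relations rested on Col4a3-/- replicate 3 and wild type replicate 1. No pair other than the 3 class II pairs passed after adjustment (smallest adjusted exact permutation p = 0.162).

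**Figure D3:**
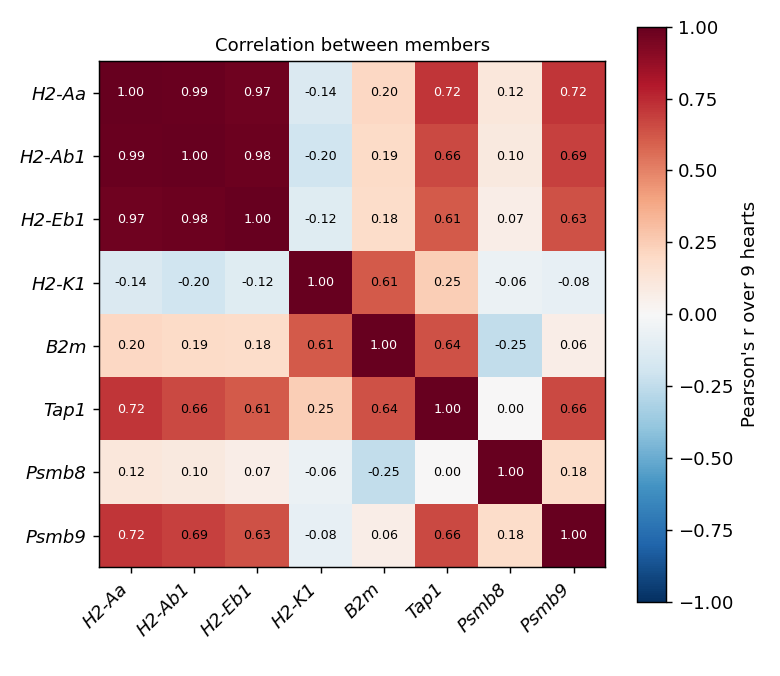
Pearson's r over 9 hearts (colour and printed value) for every pair of members, given by row and column. The block of H2-Aa, H2-Ab1 and H2-Eb1 is at 0.97 to 0.99, and H2-K1 has r between -0.20 and -0.12 with each of them.

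Mean signals of markers of cells that carry class II did not have the same order of hearts as the class II mean. The mean of 13 macrophage and monocyte markers was highest in Col4a3-/- replicate 2 (7.83) and lay at 7.20 to 7.57 in Col4a3-/-OPN-/- hearts, 7.36 to 7.83 in Col4a3-/- hearts and 7.24 to 7.36 in wild type hearts. Its r with the class II mean was -0.13, and -0.37 without the 2 hearts furthest from the median (Spearman's rho -0.55, exact permutation p = 0.745 and Spearman exact p = 0.133, adjusted over 28 relations 0.909 and 0.566). In Col4a3-/- replicate 3 and wild type replicate 1, lowest in class II, the macrophage mean was 7.36 in both. In Col4a3-/- replicate 3 this mean joined markers that went opposite ways. Adgre1 (5.93), Csf1r (7.68), Fcgr1 (5.46) and Cx3cr1 (5.72) had their lowest value of the 9 hearts there. Cd14 (8.46) had its highest, and the other macrophage markers were at neither end. In wild type replicate 1 Adgre1 was at 6.68 and Csf1r at 8.15. These genes were singled out after their values were seen. The mean of 6 pan-leukocyte markers had r = -0.33 with the class II mean and lay at 6.15 to 6.81 in Col4a3-/-OPN-/-, 6.39 to 6.70 in Col4a3-/- and 6.31 to 6.55 in wild type hearts. The mean of 4 dendritic cell markers had r = 0.015, and 0.56 without the 2 furthest hearts.

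Col4a3-/- replicate 2, highest in the macrophage mean, was also highest in all 6 airway and lung markers and both brown fat markers, of which 2 and 2 passed the filter. The airway protein gene Scgb1a1 was at 9.81, 4.93 and 9.52 in Col4a3-/-OPN-/- hearts, 4.54, 12.21 and 4.61 in Col4a3-/- hearts and 6.10, 5.09 and 5.36 in wild type hearts. Ucp1, the uncoupling protein of brown fat, was at 11.06 in that heart and at 4.79 to 9.20 in the others. Both genes were singled out after their values were seen, and the part of lung or brown fat tissue in the macrophage mean of this heart was not tested.

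Many markers of lymphocytes were too dim to follow. Of 7 B cell markers, 6 had a probe set of their own and only Ighm passed the filter, and of 11 T and NK cell markers 4 passed. Dendritic cell markers had 4 of 9 past the filter. The part of these cell types in the class II signal was not tested further.

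Interferon gamma targets had r = 0.59 with the class II mean and r = 0.76 with the mean of the class I and peptide supply members, over 11 tested genes of 17. Without the 2 hearts furthest from the median of the class II mean, the first of these was 0.20, and without those furthest for the other mean the second was 0.75. The mean of 7 acute phase and endothelial activation genes had r = -0.71 with the class II mean, and -0.38 without the 2 furthest hearts, which include Col4a3-/- replicate 3. The mean of the class I and peptide supply members had r = -0.66 with the pan-leukocyte mean and -0.58 with the macrophage mean. The mean of 5 atrial markers lay at 10.33 to 10.47 in Col4a3-/-OPN-/-, 8.93 to 10.39 in Col4a3-/- and 10.56 to 10.76 in wild type hearts, lowest in Col4a3-/- replicates 1 and 3, and had r = 0.37 with the class II mean and 0.11 without the 2 furthest hearts. The Y-linked signal had r = 0.16 with the class II mean and r = -0.067 with the other mean. Each of the 28 relations between these 2 member means and 14 list means was tested over 9 hearts that share 1 normalization, and none passed after adjustment (smallest adjusted exact permutation p = 0.301 for r and 0.404 for rho). At an unadjusted exact p under 0.05 were 3 of 28 for r and 3 of 28 for rho. The lists were chosen with earlier results of these data known, and the part of any of them in the member signals was not tested.

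**Figure D4:**
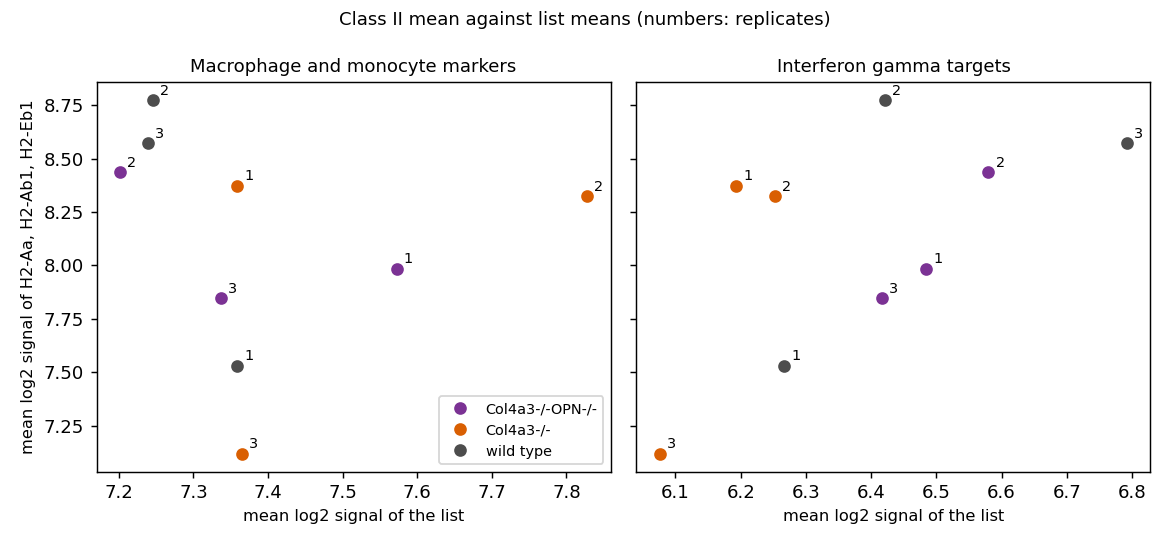
Mean log2 signal of H2-Aa, H2-Ab1 and H2-Eb1 (vertical axis) against the mean of 13 macrophage and monocyte markers (left) and of 11 interferon gamma targets (right), with a point for each heart, its replicate number beside it and the genotype by colour. The 2 lowest hearts in class II both have a macrophage mean of 7.36, which in Col4a3-/- replicate 3 joins markers that went opposite ways. The heart with the highest macrophage mean, Col4a3-/- replicate 2, has a class II mean of 8.33 and is also highest in lung and brown fat markers.

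Whether losing osteopontin on top of Col4a3 moved the members was read from Col4a3-/-OPN-/- against Col4a3-/- hearts. No member passed the test, which was limma's moderated test over 13650 probe sets with Benjamini-Hochberg adjustment at 0.05. Of all probe sets tested, 0.044% were called in this comparison, and 0 of 8 members had an unadjusted p under 0.05, against 13.6% of all probe sets. Tap1 had a log2 difference of 0.24 (SE 0.15, 95% interval -0.093 to 0.58, limma adjusted p = 0.519) and Psmb9 one of 0.34 (SE 0.18, 95% interval -0.052 to 0.73, limma adjusted p = 0.434). Groups did not overlap for 1 of 8 members, Tap1, and for 16.5% of all probe sets tested. B2m had a difference of 0.20 (SE 0.12, limma adjusted p = 0.502) and H2-K1 of 0.12 (SE 0.19, limma adjusted p = 0.813).

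The class II differences between Col4a3-/-OPN-/- and Col4a3-/- hearts were small beside their intervals. H2-Ab1 had a log2 difference of 0.21 (SE 0.43, 95% interval -0.73 to 1.16, limma adjusted p = 0.857), H2-Aa 0.18 (SE 0.40, adjusted p = 0.868) and H2-Eb1 0.054 (SE 0.30, adjusted p = 0.954). Without Col4a3-/- replicate 3 these turned to -0.26, -0.25 and -0.27. Without Col4a3-/- replicate 1 those of H2-Ab1 and H2-Aa rose to 0.47 and 0.44. Psmb8 had -0.092 (SE 0.16, limma adjusted p = 0.827). The median over the 8 members was 0.19, with 7 positive, beside a median of 0.043 over all probe sets tested.

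Col4a3-/-OPN-/- hearts were also set against wild type hearts, where the members' differences lay on both sides of 0. No member was called, nor was any other probe set (0%), and 0 of 8 members had an unadjusted p under 0.05, against 3.68% of all probe sets. H2-Ab1 had a log2 difference of -0.24 (95% interval -1.18 to 0.71) and H2-Aa of -0.23 (-1.11 to 0.64), each with limma adjusted p = 0.999. Without wild type replicate 2 the class II differences turned to 0.071 (H2-Ab1), 0.015 (H2-Aa) and 0.030 (H2-Eb1). Without wild type replicate 1 they were -0.66, -0.66 and -0.42 in the same order. H2-K1 was at 0.16 and Tap1 at 0.13 (limma adjusted p = 0.999 for each). The members' median was 0.014, with 4 positive and 4 negative, beside 0.011 over all probe sets.

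Col4a3-/- against wild type hearts is the comparison without loss of osteopontin, and again no member was called. Sex differed as well: Col4a3-/- replicates 1 and 3 had the female pattern and no wild type heart did. Atrial marker means differed too (8.93 to 10.39 against 10.56 to 10.76). Neither can be fully told apart from genotype in this comparison. With Col4a3-/-OPN-/- replicate 2 also female in pattern, no comparison was balanced for sex. Limma called 0% of the 13650 probe sets. At an unadjusted p under 0.05 were 8.35% of them and 0 of 8 members. H2-Ab1 had a log2 difference of -0.45 (SE 0.43, 95% interval -1.39 to 0.50, limma adjusted p = 0.80), H2-Aa -0.42 (SE 0.40, adjusted p = 0.80) and H2-Eb1 -0.19 (SE 0.30, adjusted p = 0.889). These values depended on single hearts in either direction. Without Col4a3-/- replicate 3 they were 0.029, 0.016 and 0.13, and without wild type replicate 1 they were -0.88, -0.84 and -0.48. Psmb9 had -0.29 (SE 0.18, 95% interval -0.68 to 0.10, limma adjusted p = 0.683), and without Col4a3-/- replicate 3 -0.10. Tap1 (-0.12), B2m (-0.081), H2-K1 (0.047) and Psmb8 (0.067) had limma adjusted p-values of 0.861, 0.878, 0.962 and 0.930.

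The members' median in Col4a3-/- against wild type hearts was -0.15, with 2 positive and 6 negative, beside -0.023 over all probe sets, and groups overlapped for all 8 members (12.5% of all probe sets did not overlap). A moderated F-test for any difference among the 3 genotypes called 0 of 8 members, with adjusted p between 0.683 (Psmb9) and 0.956 (Psmb8), and 0.0147% of all probe sets. None of the 8 had an unadjusted F-test p under 0.05, against 9.3% of all probe sets. The comparisons share their samples, so these values are not independent of each other. The intervals leave room for differences of up to about 1.39 log2 units in H2-Ab1, but of no more than 0.46 in B2m in any comparison.

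**Figure D5:**
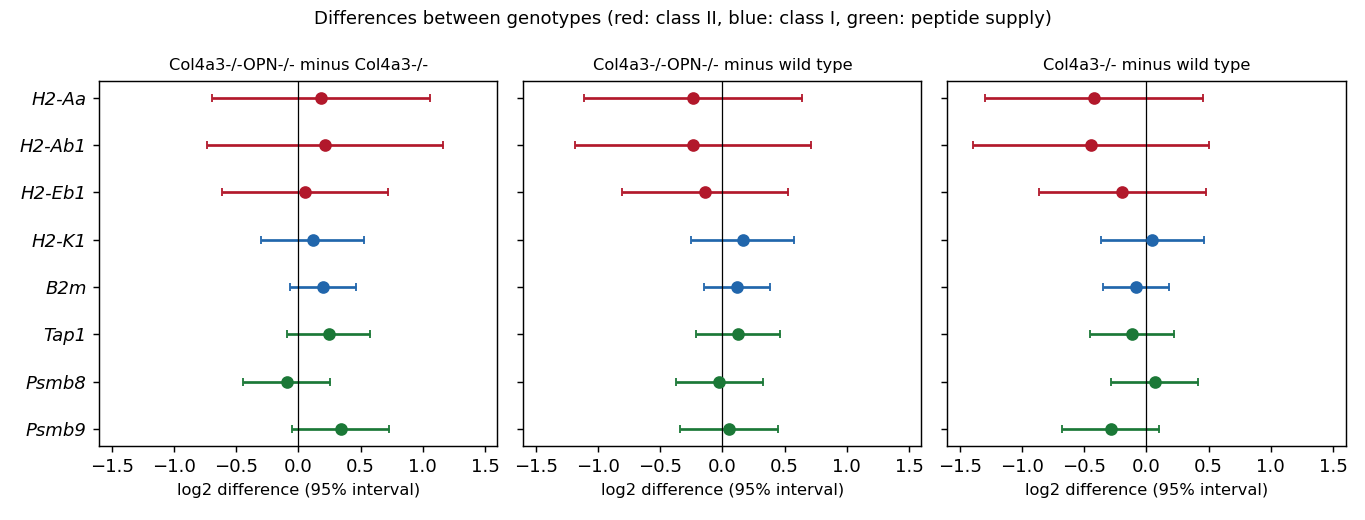
Fitted log2 differences of the 8 members with 95% intervals (horizontal axes) in the 3 comparisons, with class II in red, class I in blue and peptide supply in green. All 24 intervals include 0, and those of H2-Aa and H2-Ab1 are the widest.

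Other genes of both pathways were also without calls. Of 13 other class II pathway genes 7 were tested, and 0 passed in any comparison. Between Col4a3-/-OPN-/- and Col4a3-/- hearts their median was -0.035, from -0.45 for the cathepsin Ctsl to 0.088 for H2-DMa. Against wild type hearts the Col4a3-/-OPN-/- median was -0.082, from -0.24 for the protease Lgmn to 0.29 for the cathepsin Ctss, and the Col4a3-/- median was 0.072, from -0.20 (Lgmn) to 0.43 (Ctsl). Ctsl was at 11.29 in Col4a3-/- replicate 3, the heart lowest in class II, and at 9.64 to 10.21 in the other 8 hearts.

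Of 21 other class I pathway genes 15 were tested, and 0 passed in any comparison. Between Col4a3-/-OPN-/- and Col4a3-/- hearts 4 of the 15 had an unadjusted p under 0.05, with 3 of 15 not overlapping, beside 13.6% and 16.5% of all probe sets. Between Col4a3-/-OPN-/- and wild type hearts 5 of 15 did not overlap, beside 13.2% of all probe sets, and 0 had an unadjusted p under 0.05. Between Col4a3-/- and wild type hearts 1 of 15 did not overlap and 1 had an unadjusted p under 0.05, beside 12.5% and 8.35% of all probe sets. The lowest in the first of these comparisons was H2-Q10, a secreted class I chain made mainly in liver, at 6.32, 6.24 and 6.40 in Col4a3-/-OPN-/- hearts, 6.64, 7.42 and 7.33 in Col4a3-/- hearts and 6.55, 6.37 and 6.47 in wild type hearts. Its log2 difference between Col4a3-/-OPN-/- and Col4a3-/- hearts was -0.81 (SE 0.19, limma adjusted p = 0.156), and 0.66 between Col4a3-/- and wild type hearts (limma adjusted p = 0.451). The highest in the same comparison was the nonclassical H2-T24, with 0.43 (SE 0.18, adjusted p = 0.352), and 0.36 against wild type hearts. Calr, a chaperone of class I folding, was lowest in both mutant groups against wild type, with -0.30 and -0.28 in Col4a3-/-OPN-/- and Col4a3-/- hearts (limma adjusted p = 0.999 and 0.641).

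The constitutive proteasome subunits Psmb5, Psmb6 and Psmb7, which Psmb8, Psmb9 and Psmb10 replace in the immunoproteasome, had log2 differences between -0.056 and 0.064 in the 3 comparisons, with 0 of 3 called. Of 19 regulators of MHC transcription 17 were tested and 0 were called. Between Col4a3-/-OPN-/- and Col4a3-/- hearts they ran from -0.66 for the cytokine signalling inhibitor Socs3 (limma adjusted p = 0.249) to 0.32 for the interferon regulatory factor Irf1 (adjusted p = 0.403), with a median of 0.12. Against wild type, Col4a3-/-OPN-/- hearts ran from -0.24 (Socs3) to 0.41 (Irf2), and Col4a3-/- hearts from -0.42 for the interferon gamma receptor chain Ifngr2 to 0.42 (Socs3).

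Interferon gamma targets had no call either. The class II members had a median of -0.42 for Col4a3-/- minus wild type. Among the pathway lists other than the members, interferon gamma targets had the medians furthest from 0 in both comparisons that involve Col4a3-/- hearts. Their median was 0.30 between Col4a3-/-OPN-/- and Col4a3-/- hearts (9 of 11 positive), 0.013 between Col4a3-/-OPN-/- and wild type hearts (8 of 11 positive) and -0.28 between Col4a3-/- and wild type hearts (0 of 11 positive). Over all probe sets tested the medians were 0.043, 0.011 and -0.023. Groups did not overlap for 4, 0 and 3 of the 11, beside 16.5%, 13.2% and 12.5% of all probe sets. The extreme was Gbp7, a guanylate-binding protein, at 6.94, 7.20 and 7.25 in Col4a3-/-OPN-/- hearts, 6.43, 6.36 and 5.81 in Col4a3-/- hearts and 6.96, 6.98 and 7.47 in wild type hearts. Gbp7 thus lay lower in all 3 Col4a3-/- hearts than in any other heart, with log2 differences of 0.93 for Col4a3-/-OPN-/- minus Col4a3-/- (limma adjusted p = 0.144) and -0.94 for Col4a3-/- minus wild type (adjusted p = 0.345). At the other end, Cxcl10 (-0.098), Cxcl9 (-0.30) and Irgm1 (-0.0033) were the lowest, lowest and highest in the 3 comparisons in the order above, and Gbp4 (0.15) was the highest against wild type in Col4a3-/-OPN-/- hearts.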

How the data were processed

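Transcript levels of 9 hearts come from the authors' deposited table of log2 values, 1 per probe set and array. RMA, which corrects background, normalizes arrays together and summarizes probes, is named per the submitters' processing notes, with no version given. A small RNA kit is named for labelling, per the labels, although the annotation belongs to an Affymetrix whole-transcript gene array, so the labelling is uncertain. Of 33793 probe sets, 23521 had 1 symbol, 1814 several, and 8458 were not listed. Symbols were updated by gene identifier through RefSeq GRCm38.p6, which held 13586 of the 13650 tested.

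The 13650 tested probe sets had 1 symbol and a mean above 5.21, the table's median. All 9 arrays entered 1 limma fit (lmFit, eBayes with an intensity trend, limma 3.58.1, R 4.3.3) with 3 contrasts, Benjamini-Hochberg adjustment at 0.05 and moderated 95% intervals. The number of arrays limits the precision: the median SE of Col4a3-/- minus wild type was 0.15. No label says that hearts of 1 group came from separate litters, so p-values measure the spread between these hearts. Each gene of a list was represented by its brightest probe set. Correlations between members used exact permutation of 9 hearts (Python 3.11.15, scipy 1.17.1). Members, lists and motifs were chosen with earlier results of these data known. The named genes are all members, the highest and lowest gene of each pathway list in each comparison, and the 5 genes most like the mean of the class II members and the 5 most like that of the others; other names are given as such. The fit and the exact test were tested on simulated data.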

Additional observations from a re-analysis of the deposited data

How the results depend on the processing

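No member passed in any of 477 alternative values (smallest limma adjusted p = 0.170), and 6 of 24 member differences kept their sign in all of them. Values that changed sign were, with array weights, H2-Eb1 (0.045) and Psmb8 (-0.042) for Col4a3-/- minus wild type, and H2-Aa (-0.0056), H2-Ab1 (-0.015), H2-Eb1 (-0.12) and Psmb8 (0.030) for Col4a3-/-OPN-/- minus Col4a3-/-. With a Y-linked covariate they were H2-K1 (-0.00018) and Psmb8 (-0.17) for Col4a3-/- minus wild type and Psmb8 (0.043) for Col4a3-/-OPN-/- minus Col4a3-/-, and with renewed quantile normalization H2-Eb1 (-0.024) in the second comparison. The cause was not tested.

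Leaving out each heart in turn changed the sign of 18 of the 24 differences. It moved H2-Aa from -0.84 to 0.016, H2-Ab1 from -0.88 to 0.029, H2-Eb1 from -0.48 to 0.13, H2-K1 from -0.074 to 0.18, B2m from -0.20 to 0.0056 and Psmb8 from -0.061 to 0.21 for Col4a3-/- minus wild type. For Col4a3-/-OPN-/- minus Col4a3-/- the ranges were -0.25 to 0.44 (H2-Aa), -0.26 to 0.47 (H2-Ab1), -0.27 to 0.24 (H2-Eb1), -0.013 to 0.26 (H2-K1) and -0.24 to 0.036 (Psmb8). For Col4a3-/-OPN-/- minus wild type they were -0.66 to 0.015 (H2-Aa), -0.66 to 0.071 (H2-Ab1), -0.42 to 0.030 (H2-Eb1), -0.0049 to 0.19 (B2m), -0.037 to 0.22 (Tap1), -0.10 to 0.055 (Psmb8) and -0.012 to 0.14 (Psmb9). The other 6 differences kept their sign, with ranges of -0.28 to -0.019 (Tap1) and -0.48 to -0.10 (Psmb9) for Col4a3-/- minus wild type, 0.11 to 0.27 (B2m), 0.18 to 0.30 (Tap1) and 0.15 to 0.53 (Psmb9) for Col4a3-/-OPN-/- minus Col4a3-/-, and 0.058 to 0.31 (H2-K1) for Col4a3-/-OPN-/- minus wild type. The members' median ranged from -0.31 to -0.021, from 0.040 to 0.24 and from -0.056 to 0.079 in these 3 comparisons.

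Counts of limma calls over all probe sets moved too. For Col4a3-/- minus wild type 0 became 1 with centred arrays, a stricter filter, no trend, robust moderation or the Y-linked covariate, and 0 to 6 without a heart (6 without Col4a3-/- replicate 2, 4 without Col4a3-/- replicate 1, 1 without wild type replicate 1). For Col4a3-/-OPN-/- minus Col4a3-/- 6 became 2 with a stricter filter or array weights and 0 with the Y-linked covariate, and 0 to 22 without a heart (22 without Col4a3-/- replicate 2, 11 without Col4a3-/- replicate 1, 2 without Col4a3-/- replicate 3, 1 without wild type replicate 3, 0 without Col4a3-/-OPN-/- replicate 1). For Col4a3-/-OPN-/- minus wild type 0 became 2 with all probe sets and 1 with array weights or the Y-linked covariate, and 0 to 3 without a heart (3 without Col4a3-/-OPN-/- replicate 2, 1 without wild type replicate 2). For the F-test 2 became 4 with all probe sets and 1 with renewed quantile normalization, no filter, a stricter filter, no trend or the Y-linked covariate, and 0 to 4 without a heart (4 without Col4a3-/-OPN-/- replicate 2, 1 without Col4a3-/-OPN-/- replicate 3 or wild type replicate 2, 0 without replicate 1 of either mutant group or wild type replicate 3).

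Replicate numbers did not pair the hearts: deviations from group means had r between -0.19 and 0.23 over 9 same-numbered pairs, with 2 above 0.1. The replicate block moved the calls of Col4a3-/-OPN-/- minus Col4a3-/- to 0 and those of the F-test to 0, and called no member. Every member gene had 1 probe set of its own, so another probe set of a member gave no value. With 3 hearts a group the intervals of the class II genes exceed 1 log2 unit in width.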

Other observations

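The 5 genes most like the mean of the class I and peptide supply members over the 9 hearts, out of 13642 other probe sets, were Dgat2, an enzyme of triglyceride synthesis (r = 0.917), Ccdc28b (0.900), Cdk5rap2 (0.886), Gm5797 (0.877) and Uckl1os (0.871). Without the 2 hearts furthest from the median these were 0.914, 0.957, 0.916, 0.906 and 0.869. None of these is a gene of the antigen presentation lists, whereas H2-DMa led the corresponding list for class II.

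Other class I pathway genes had r = 0.699 with the mean of the class I and peptide supply members (0.656 without the 2 furthest hearts) and r = 0.11 with the class II mean, and other class II pathway genes had r = 0.23 with the class II mean. None of these passed an exact permutation test over 9 hearts after adjustment over 28 relations: for the first, p = 0.0297 and adjusted p = 0.301, for the second p = 0.785 and adjusted p = 0.909, and for the third p = 0.556 and adjusted p = 0.909.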
